A study of Mus musculus with 6 samples.

Results

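Msx1 and Msx2, 2 related homeobox genes, were measured in sorted limb bud cells of mouse embryos, and both gave far less signal in the cells that carried Sox9-EGFP than in those that did not. The array named 21244 genes by symbols of the reference list, and these 2 were found by taking every non-control probe that the array files assign to Msx1 or Msx2. Each gene had 1 probe, so 2 of 55681 probes are described, and both passed the filter on dim probes. The study set Sox9-EGFP positive against Sox9-EGFP negative cells to find genes that differ between them.

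Both groups came from C57BL/6 embryos at stage E11.5 with EGFP knocked in at Sox9 ("SoxEGFP mouse" in the labels), a gene that marks the cells about to form cartilage. Cells of the forelimb autopod, the future hand plate, were sorted by EGFP fluorescence, and the labels call every sample mesenchymal. Each group had 3 samples, and about 10 autopods were pooled for each, so a sample has no single embryo behind it. The control cells carry the same knock-in, and for the limits of the sorting gate and the litters the sources used here give nothing, so the p-values measure the spread between these 6 samples, which may be in part technical.

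Msx proteins are homeodomain transcription factors that bind AT-rich DNA and act mainly as repressors. Their genes are classic targets of bone morphogenetic protein (BMP) signalling. In the limb bud they are known for transcription in the distal mesenchyme under the apical ectodermal ridge, along the limb margins and later between the digits, and mice that lack both have malformed limbs. Sox9, the factor the sort followed, is needed for the mesenchyme to condense into cartilage.

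Both genes lie on the minus strand of the mouse reference. The 250 bases before the start of each gene, from RefSeq on GRCm38.p6, are shown because they hold the promoter-proximal letters of the genes. Capitals mark a homeobox core (TAATTA), a GC-rich Smad element with an open base (GCCGNC) and the CCAAT box, on either strand, and the last base is the one just before the gene's start.
Msx1 chr5:37824586-37824835: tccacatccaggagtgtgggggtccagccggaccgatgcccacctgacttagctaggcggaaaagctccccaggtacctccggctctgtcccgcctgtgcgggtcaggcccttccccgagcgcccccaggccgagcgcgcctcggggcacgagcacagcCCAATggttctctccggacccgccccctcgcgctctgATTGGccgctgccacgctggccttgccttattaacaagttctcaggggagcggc
Msx2 chr13:53472781-53473030: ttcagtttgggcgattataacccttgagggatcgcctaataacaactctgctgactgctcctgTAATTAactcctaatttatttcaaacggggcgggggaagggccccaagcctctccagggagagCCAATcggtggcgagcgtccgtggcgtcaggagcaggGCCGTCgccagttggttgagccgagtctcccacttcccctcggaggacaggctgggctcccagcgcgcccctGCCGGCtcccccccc
Counted back from the gene's start, the Msx1 window held CCAAT at bases -91 to -87 and, on the opposite strand, at -54 to -50. The Msx2 window held CCAAT at -124 to -120, TAATTA at -187 to -182 and GCCGNC at -87 to -82 and at -15 to -10. None of these matches overlaps another. Of 27025 windows of the same length in the same reference, 34.5% held CCAAT, 4.90% held TAATTA and 27.0% held GCCGNC on either strand. A GC box (GGGCGG), found in 32.9% of the windows, was present once in each window shown and is not capitalised. The Smad element GGCGCC, the TCF/LEF core CTTTGA, the Sox core ACAATG and the TATA box TATAAA were not in these letters of either gene, and they were in 9.54%, 14.1%, 11% and 13% of the windows. The windows were rich in G and C, with 68.0% for Msx1 and 61.6% for Msx2 against a median of 52% over the windows. The matches are letters in a window and were not tested as binding sites.

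The Msx1 probe, A_52_P561671, covers chr5:38212305-38212364 of the mm9 build and starts at base 1296 of the transcript. The Msx2 probe, A_55_P2043486, covers chr13:53562318-53562377 of mm9 and starts at base 2034 of its transcript. Both positions are exonic by the files' transcript coordinates, and whether they are coding or in a UTR was not settled here. Neither probe was saturated, and both were well above background on all 6 arrays. The scanner software put the error of a single Msx1 or Msx2 signal at 10.0% to 11.6%.

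Before the members, the arrays were checked. Sox9 was 4.37 ± 0.20 higher (log2, SE) in positive cells (limma, adjusted p = 0.00051, n = 3 and 3), as the labels have it. Positive replicate 1 was dim: its 75th percentile of processed signal was 126, against 385 to 478 on the other 5 arrays, and 24743 of its 59305 non-control spots were well above background, against 29800 to 35277. Across the 26473 probes kept after the filter on dim probes, it correlated at 0.964 and 0.967 with the other positive arrays. Those 2 correlated with each other at 0.992 and with the negative arrays at 0.958 to 0.970. Positive replicate 1 correlated with the negative arrays at 0.941 to 0.960. Below, a level is the log2 of the processed signal over the 75th percentile of the same array, so that 0 is a signal equal to that percentile. "Called" means an adjusted p under 0.05 in the limma fit over 26473 probes.

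Msx1 had processed signals, before any scaling, of 94.7, 763 and 1164 in positive replicates 1, 2 and 3. In negative replicates 1, 2 and 3 they were 19020, 12676 and 17824. On the scaled log2 level these were -0.41, 0.91 and 1.47 in positive cells. The negative cells had levels of 5.41, 5.04 and 5.22. The highest positive array stayed far below the lowest negative array, and the positive arrays were spread more widely (SD 0.96, n = 3) than the negative ones (SD 0.18, n = 3). The difference in Msx1, positive minus negative, was -4.56 ± 0.47 (log2, SE; limma, adjusted p = 0.0029), which is 23.7-fold lower with a 95% interval of 10.8-fold to 52.0-fold.

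Msx2 had processed signals of 80.5, 477 and 883 in positive replicates 1, 2 and 3. In negative replicates 1, 2 and 3 they were 5136, 5031 and 5234. The scaled log2 levels of Msx2 were -0.64, 0.23 and 1.07 in positive cells and 3.52, 3.71 and 3.45 in negative cells. Again the groups did not overlap, and the negative arrays lay close together (SD 0.13) while the positive arrays did not (SD 0.86). The difference in Msx2 was -3.34 ± 0.42 (log2, SE; limma, adjusted p = 0.0053), which is 10.1-fold lower with a 95% interval of 5.01-fold to 20.4-fold.

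Both genes were called lower, as were 13.7% of the probes tested, and called probes in either direction were 21.6%. Groups without overlap were found for 43.2% of the probes, and for 28.2% with the positive group lower. A fitted drop of at least 10-fold that was also called was rarer, at 54 probes or 0.204% of those tested. Probes dim in a group were counted there at their fitted value. Both Msx probes were among the 54, but Msx2 only just, at 10.1-fold. Under some settings Msx2 was below 10-fold, such as quantile normalization (9.13-fold), the authors' own values (7.55-fold) and without positive replicate 1 (7.50-fold). Msx1 stayed above 10-fold under every setting. An exact two-sided permutation test of the 6 arrays gave p = 0.1 for each gene, the smallest that 3 against 3 can reach. RNA of sorted populations cannot tell fewer cells that transcribe a gene from less RNA per cell.

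**Figure D1:**
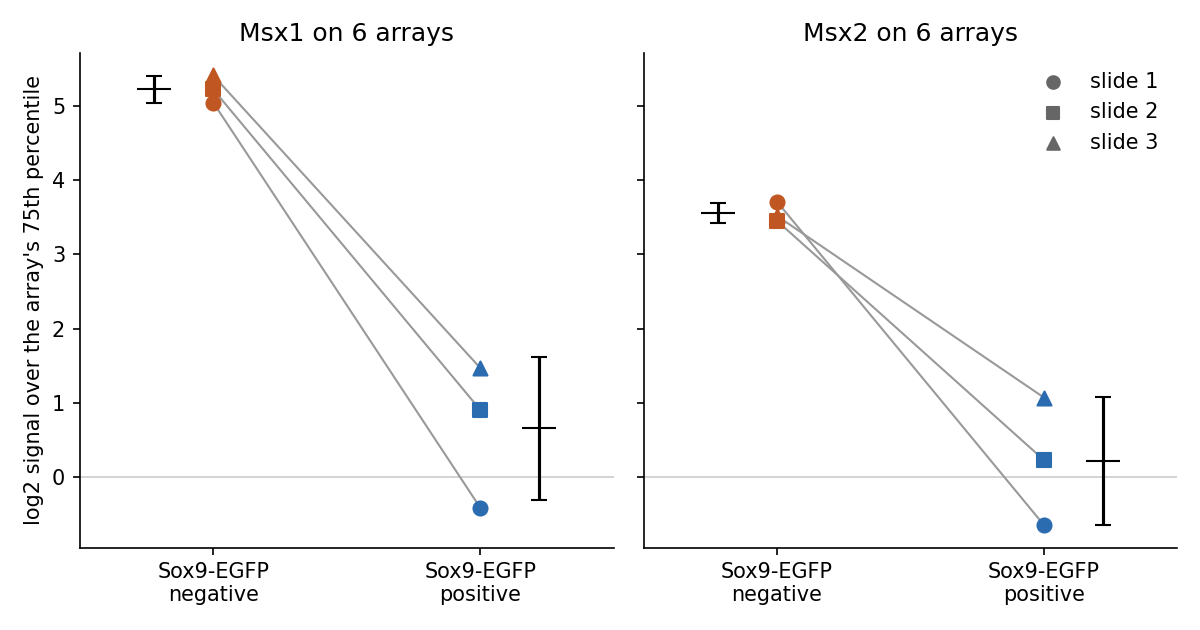
Levels of Msx1 (left) and Msx2 (right) on the 6 arrays, as the log2 of the processed signal over the 75th percentile of the array. Points are arrays, lines join the arrays of a slide, and the bars beside them are the group mean ± SD (n = 3); every positive array lies below every negative array, and the positive array of slide 1 is the lowest for both genes.

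The slides carried 1 array of each group, which allows the difference to be read within a slide. For Msx1 it was -5.45 on slide 1, -4.31 on slide 2 and -3.93 on slide 3 (log2), or 43.7-fold, 19.8-fold and 15.3-fold lower. For Msx2 it was -4.35, -3.22 and -2.44 on the same slides, or 20.4-fold, 9.31-fold and 5.44-fold lower. The drop was thus widest on slide 1, which holds the dim positive array, and narrowest on slide 3, in both genes. With slide as a block in the limma fit the adjusted p was 0.0052 for Msx1 and 0.012 for Msx2. Without positive replicate 1 the differences were -4.03 ± 0.22 for Msx1 (limma, adjusted p = 0.0010) and -2.91 ± 0.27 for Msx2 (limma, adjusted p = 0.0035). Without any scaling between arrays they were -5.21 for Msx1 and -3.99 for Msx2, 37.1-fold and 15.9-fold lower, while the median of all probes moved from -0.10 to -0.75 (log2).

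**Figure D2:**
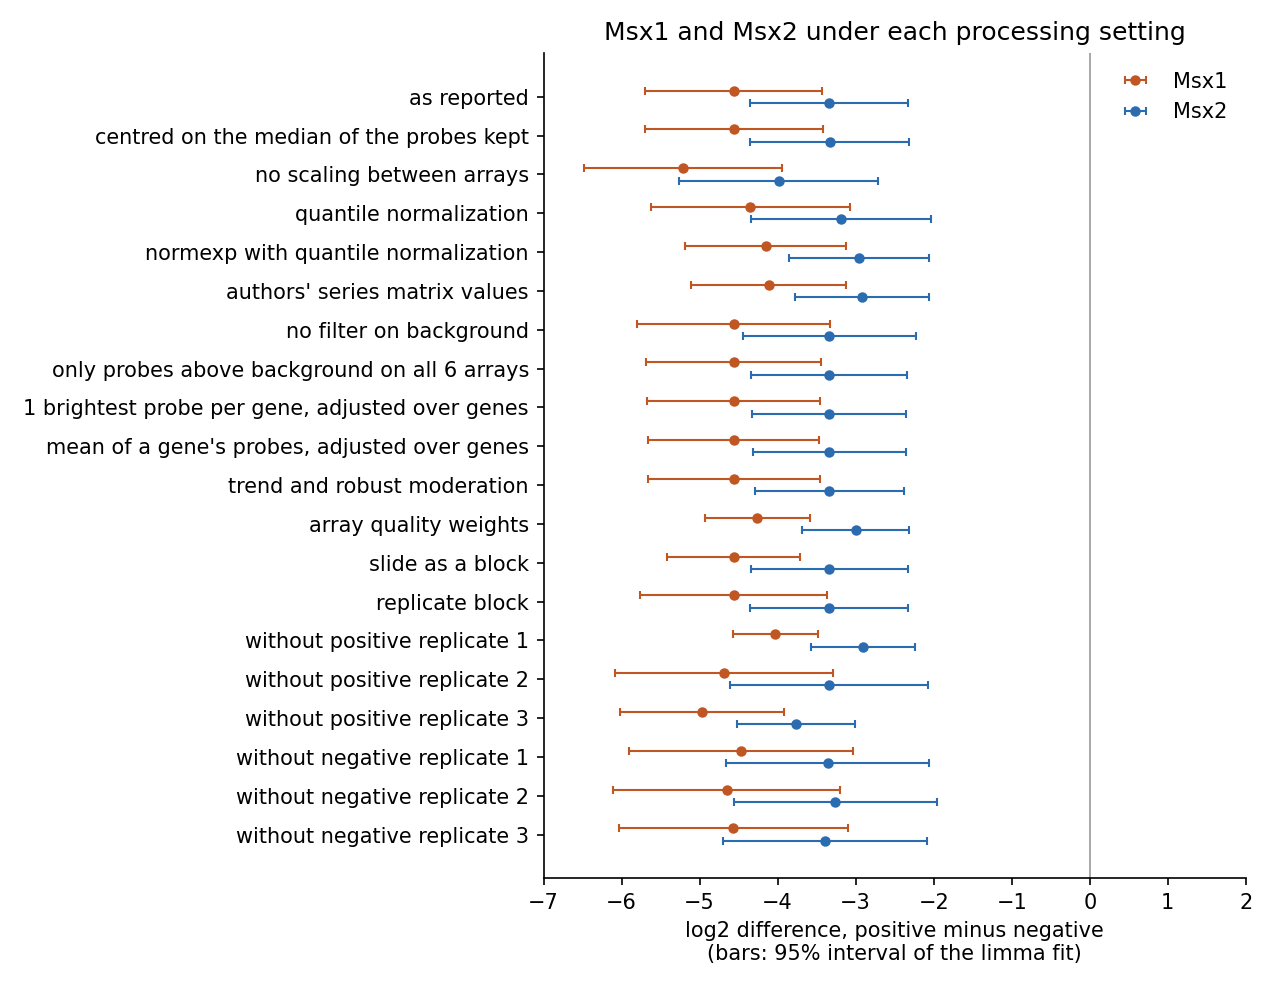
Log2 difference of Msx1 and Msx2, positive minus negative, as reported and under 13 other processing settings and 6 fits that each leave out an array (bars, 95% interval of the limma fit). Every interval lies below 0, the widest drop is without scaling (-5.21 and -3.99), and the smallest for both genes is without positive replicate 1 (-4.03 and -2.91).

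The fitted fall was larger for Msx1 than for Msx2. Taken within each array, the change in Msx1 less the change in Msx2 was -1.23 (log2), so that the fold for Msx1 was 2.34 times that for Msx2. The same difference was -1.10, -1.09 and -1.49 on slides 1, 2 and 3, so its direction was the same on all 3. It does not depend on the scaling by the 75th percentile, since both probes of an array share it. An exact two-sided permutation test gave p = 0.1, again the smallest possible with 6 arrays, and a probe's own response to RNA amount is part of such a comparison.

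Msx3, the remaining mouse Msx gene and no member here, was not called on its brighter probe. Its processed signals were 569, 51.5 and 48.5 in positive replicates 1, 2 and 3 and 352, 229 and 214 in the negative ones. The dim array was the highest of all for Msx3 and the lowest for Msx1 and Msx2. The Msx3 difference was -0.55 ± 1.42 (log2, SE; limma, adjusted p = 0.82). Without positive replicate 1 it was -2.29 (limma, adjusted p = 0.0053), so that 1 array decides whether Msx3 is called, and its values were looked at because it belongs to the family.

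The markers of other cells that a sort could hold were read beside these results, as the sum of their signals over the 75th percentile. All 7 limb mesenchyme markers were well above background on all arrays, with sums of 118 to 124 in positive and 228 to 237 in negative cells. They did not move together: Prrx2, Hoxd13 and Twist1 were called lower in positive cells, Tbx5 and Pdgfra higher, and Prrx1 and Hoxa13 were not called. Tbx5 had a difference of 1.02, which missed the threshold without negative replicate 3 (1.01; limma, adjusted p = 0.053). Of 16 markers of ectoderm and apical ridge, where Msx genes are also known to be transcribed, 4 were well above background on all 3 positive arrays and 9 on all 3 negative arrays. Their sum was 22.7 to 37.8 in positive and 9.69 to 12.1 in negative cells. Most of that sum came from 2 probes, those of Trp63 and of Krt18. Krt18 was called higher, and Trp63, with a difference of 1.01, was not (limma, adjusted p = 0.059) but was called higher without positive replicate 1 (0.68; limma, adjusted p = 0.031). Of the 9 markers tested, 3 were called higher, 1 lower and 5 not at all. Of those called higher, Fgf8 lost its call in 5 of the 6 fits that left out an array. The adherens junction gene Cdh1 and the dorsal ectoderm signal Wnt7a were above background on no array, and the ridge factor Sp8, above background on the negative arrays, was at least 3.73-fold lower in positive cells.

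Neural crest and Schwann precursor markers moved with the Msx genes, with sums over 5 markers of 1.75 to 2.08 in positive and 14 to 16.2 in negative cells. Nearly all of that was the neurotrophin receptor gene Ngfr, while Foxd3, which marks early neural crest, was above background on no array. Muscle precursor markers also moved with them, at 0.139 to 0.258 in positive and 0.597 to 1.31 in negative cells; 4 of those 6 markers were above background on all 3 negative arrays and none on all 3 positive arrays. The sums of endothelial markers overlapped, at 2.83 to 7.97 in positive and 1.92 to 4.97 in negative cells. Blood and macrophage sums were 1.47 to 5.84 in positive and 2.09 to 48.5 in negative cells, with the highest in negative replicate 2. Of the 5 tested, 4 were not called and the platelet and macrophage gene Pf4 was called lower. Pf4 was well above background on all 3 negative arrays and on no positive array. It was at least 13.8-fold lower in positive cells (limma on the fitted difference, adjusted p = 0.0063). The part of these cells in the Msx differences was not tested.

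The pathway around Msx was read through 8 lists of genes, each gene by its brightest probe. The lists were chosen with earlier results of these data known, so their counts and directions are no independent evidence. Of 88 list genes measured, 20 were called higher in positive cells and 28 lower, and 40 were not called. Over all 13196 genes read in the same way, 8.53% were called higher and 18.2% lower, 26.7% in all, with a median difference of -0.18 (log2).

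BMP ligands and their secreted antagonists act upstream of Msx. Of 13 measured, 6 were called lower, 3 higher and 4 not at all, with a median of -0.89. Bmp4, a main limb BMP, had levels of 1.29, 1.44 and 1.46 in positive replicates 1, 2 and 3 and 5.67, 5.43 and 5.74 in negative ones. Its groups were widely apart and its arrays close together, the dim array included. Bmp4 fell by 4.22 ± 0.14 (log2, SE; limma, adjusted p = 0.00026), and Bmp2, another ligand, fell by 2.15 ± 0.21 (limma, adjusted p = 0.0025). The secreted BMP-binding proteins went both ways. Bmper rose by 3.21 ± 0.32 (limma, adjusted p = 0.0028) and Chrdl1 by 2.73 ± 0.22 (limma, adjusted p = 0.0014), although without scaling Chrdl1 missed the threshold. The antagonist gene Grem1, named after its values were seen, fell by 1.58 ± 0.28 (limma, adjusted p = 0.013), a call lost without negative replicate 1 (-1.45; adjusted p = 0.058) and without negative replicate 3 (-1.50; adjusted p = 0.060). The count of 6 lower fell to 3 without negative replicate 1.

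Of the 10 BMP receptors and Smads, which carry the signal to the nucleus, 9 were not called and 1 was higher, with a median of -0.12. The exception, Bmpr1b, is a type I receptor known from cartilage condensations. Its levels were 1.73, 2.06 and 2.38 in positive cells and -1.14, -0.93 and -1.24 in negative cells. Bmpr1b rose by 3.16 ± 0.20 (log2, SE; limma, adjusted p = 0.00075). The fitted differences of Smad1, Smad4 and Smad5 lay between -0.25 and 0.06 (log2), and none was called.

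Other genes that BMP commonly induces differed among themselves. Of 16 measured, 5 were lower, 1 was higher and 10 were not called, with a median of -0.44. Dlx2, a homeobox gene, was not well above background in positive cells and at least 7.20-fold lower there (limma on the fitted difference, adjusted p = 0.0034). Its relative Dlx5 fell by 2.43 ± 0.37 (log2, SE; limma, adjusted p = 0.0092), and the T-box repressor gene Tbx2 fell by 1.60 ± 0.20 (limma, adjusted p = 0.0057). Id4, which encodes an inhibitor of bHLH factors, rose by 1.29 ± 0.17 (limma, adjusted p = 0.0062), a call lost without scaling and without the background filter. Id1, Id2 and Id3, often used as BMP readouts, were not called, with fitted differences of -0.37, -0.47 and -0.11. The count of 5 lower fell to 3 without positive replicate 2 or 3 and without negative replicate 1, 2 or 3, each left out alone.

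Among genes reported elsewhere as targets of Msx proteins, 5 of 10 measured were lower and 1 was higher, with a median of -2.01. This list shares Bmp2 and Bmp4 with the ligands. The Wnt effector gene Lef1 fell by 2.23 ± 0.17 (log2, SE; limma, adjusted p = 0.0012). The forkhead gene Foxc1 was the exception, with levels of 3.62, 2.96 and 3.35 in positive cells and -3.68, -3.78 and -5.02 in negative cells, where 2 of 3 arrays measured it above background. Its fitted rise was 7.47 ± 0.40 (limma, adjusted p = 0.00055). Cyclin D1 (Ccnd1) was not called, with a fitted difference of -0.25.

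Of 11 genes for proteins reported to bind Msx proteins, 5 were lower and 6 were not called, with a median of -0.55. Lhx2, a LIM homeobox gene of distal mesenchyme, fell by 2.19 ± 0.15 (log2, SE; limma, adjusted p = 0.00093). Pax3, a gene of muscle precursors, was not well above background in positive cells and at least 5.05-fold lower there (limma on the fitted difference, adjusted p = 0.0058). Dlx2 and Dlx5 belong to this list too.

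Genes of distal and undifferentiated limb mesenchyme, the tissue in which Msx transcription is best known, were mostly lower. Of 14 measured, 11 were called lower, 1 higher and 2 not at all, and the median was -1.92. Prrx2, a homeobox gene of mesenchyme, fell by 1.93 ± 0.12 (log2, SE; limma, adjusted p = 0.00073). The LIM homeobox gene Lhx9 fell by 1.93 ± 0.14 (limma, adjusted p = 0.0011) and the bHLH gene Twist1 by 1.92 ± 0.14 (limma, adjusted p = 0.0012). Each of these falls was smaller in size than those of Msx1 and Msx2. The gene called higher, Pdgfra, named after its values were seen, had a difference of 0.79, which missed the threshold without negative replicate 1 (0.75; limma, adjusted p = 0.061) and without negative replicate 3 (0.80; limma, adjusted p = 0.053).

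Msx genes are also known from the tissue between the digits, which later dies. Of 13 genes of that tissue and of cell death, 5 were higher and 5 lower and 3 were not called, with a median of -0.24. The lower genes included Bmp4 and Bmp2, already given. The transglutaminase gene Tgm2 rose by 2.64 ± 0.21 (log2, SE; limma, adjusted p = 0.0013) and Bmf, a pro-apoptotic gene, rose by 1.77 ± 0.18 (limma, adjusted p = 0.0028), both calls being lost without scaling.

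Cartilage condensation genes moved opposite to Msx1 and Msx2. Of 11 measured, 9 were higher, none was lower and 2 were not called, with a median of 3.16. Col2a1, the main cartilage collagen, rose by 5.19 ± 0.21 (log2, SE; limma, adjusted p = 0.00041), Col9a2 by 6.67 ± 0.35 (limma, adjusted p = 0.00055) and the matrix protein gene Matn4 by 3.0 ± 0.16 (limma, adjusted p = 0.00055). These cells were sorted on the Sox9 locus, which is in this list, so its direction is no independent evidence.

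**Figure D3:**
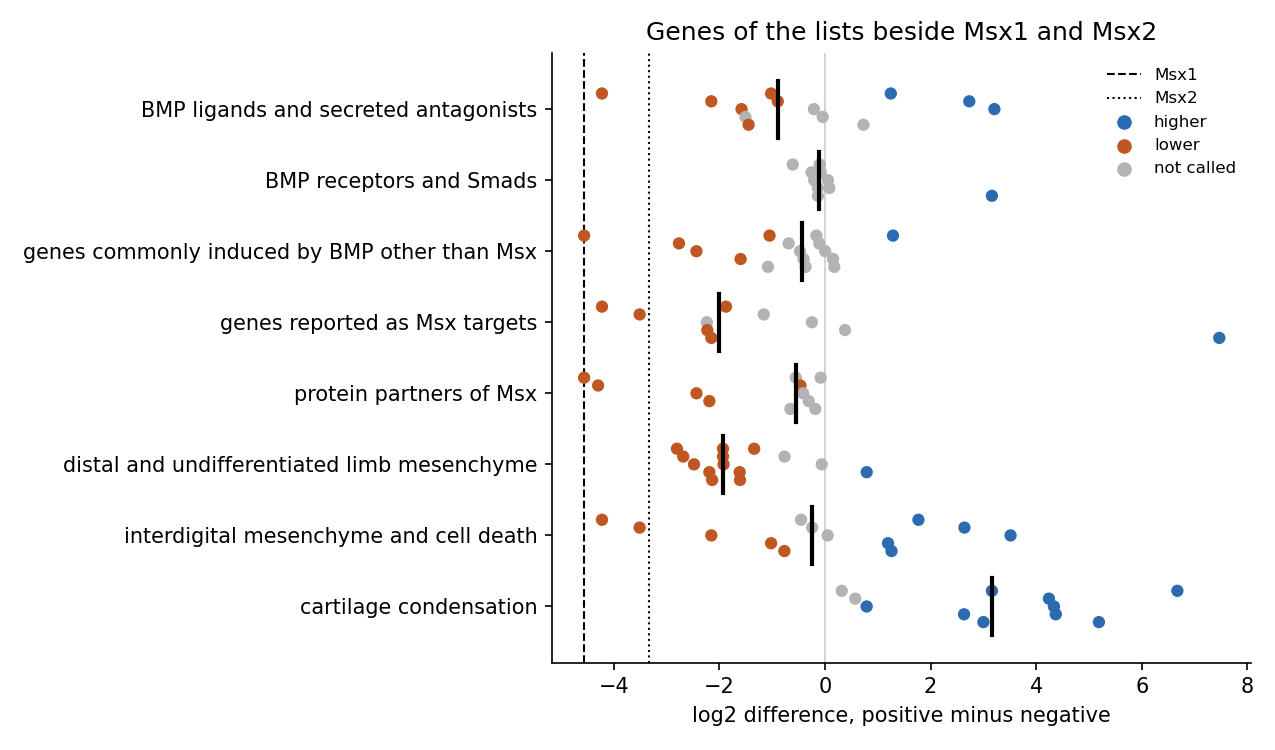
Log2 differences, positive minus negative, of the measured genes of 8 lists (points, coloured by call; black bars, list medians), with Msx1 as the dashed and Msx2 as the dotted line. Few points reach the Msx2 line: cartilage genes lie to the right with a median of 3.16, distal mesenchyme genes to the left with a median of -1.92, and genes dim in a group are drawn at their fitted value.

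Neighbouring genes were read next, by the distance of their probes from the Msx probes on mm9. Within 500 kb of the Msx1 probe lay 17 other probes, of which 10 were tested: 1 was called higher, 6 lower and 3 not at all, against 7.96% and 13.7% of all probes called higher and lower. The nearest, Cytl1, a cytokine-like gene known from cartilage, lay 81.5 kb away and had the opposite direction to Msx1. It was not well above background in negative cells and at least 8.63-fold higher in positive cells (limma on the fitted difference, adjusted p = 0.0068). The fitted difference of Cytl1 was 3.69 (log2), against 1.12 in the authors' own values. Otop1, which encodes a proton channel, was not well above background in positive cells and at least 2.46-fold lower there (limma on the fitted difference, adjusted p = 0.0062).

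The other falls near Msx1 were small. Evc2, a ciliary gene, fell by 0.96 on 1 of its 2 probes (log2; limma, adjusted p = 0.0053), and Stx18, a gene of vesicle transport, fell by 0.94 (limma, adjusted p = 0.0054). Tmem128 fell by 0.60 on 1 of 2 probes (limma, adjusted p = 0.027), Nsg1 by 0.75 (limma, adjusted p = 0.046) and a probe with no gene name by 0.49 (limma, adjusted p = 0.036). The probes of Stx18 and Nsg1 and the unnamed probe lay close together, at 315.7, 316.7 and 316.5 kb from the Msx1 probe. The 6 lower calls are therefore not 6 separate places. The calls of Nsg1 and of the unnamed probe were each lost whichever of the 6 arrays was left out. Around Msx2, 16 other probes lay within 500 kb and 7 were tested, of which 2 were lower and 5 not called. Those lower were Nfil3, a bZIP repressor gene, with a fall of 0.78 (limma, adjusted p = 0.014), and a transcript with no symbol. The transcript, annotated as a predicted pseudogene, fell by 0.76 (limma, adjusted p = 0.027). Nfil3 missed the threshold in 3 of the 6 fits that left out an array: the limma adjusted p was 0.068 in the absence of negative replicate 1, 0.057 in that of negative replicate 3 and 0.056 in that of positive replicate 3. The transcript missed it in 4 of the 6. Without scaling, and likewise without the background filter, Evc2, Stx18, Nsg1, the unnamed probe, Nfil3 and the transcript were not called.

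**Figure D4:**
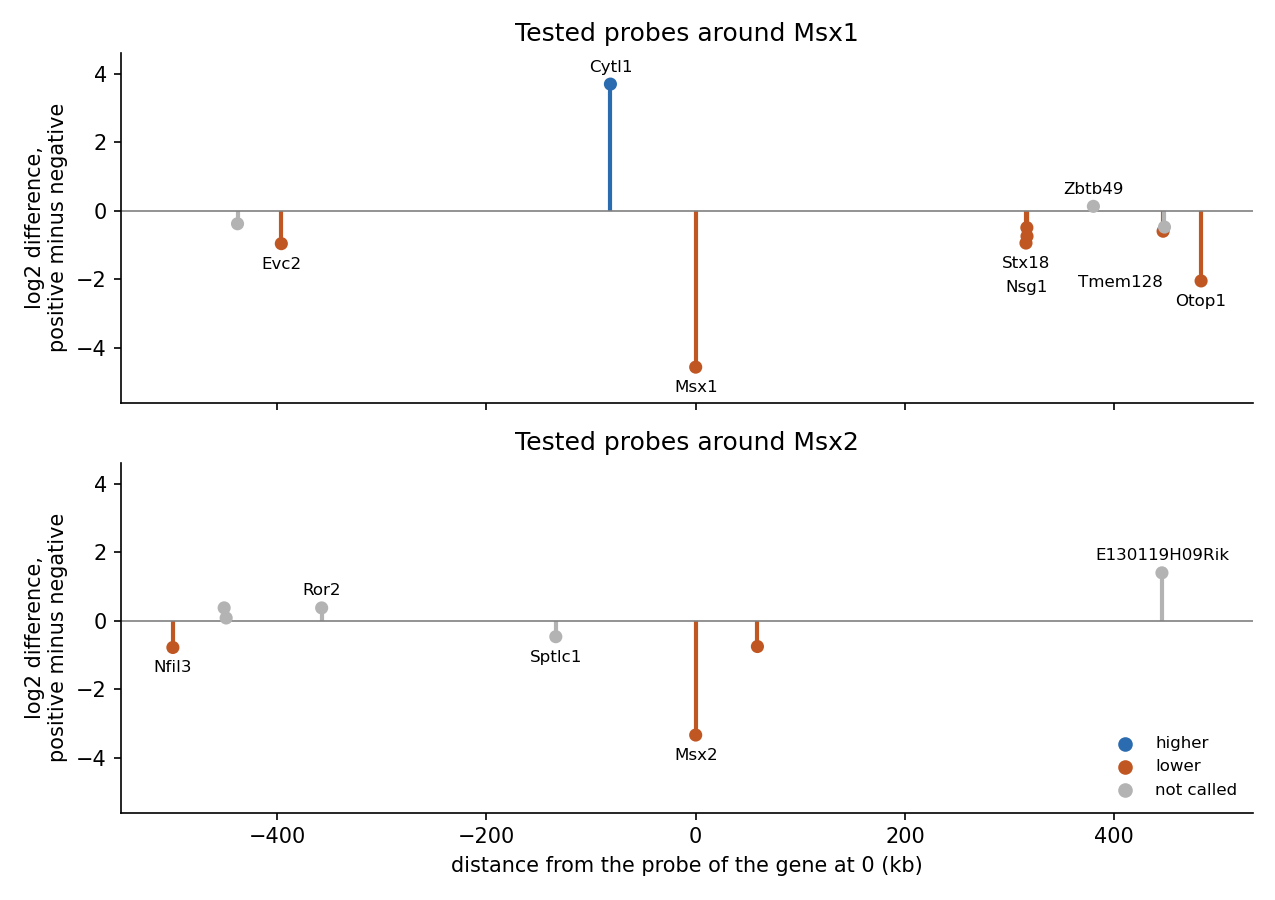
Log2 difference, positive minus negative, of the tested probes within 500 kb of the Msx1 probe (top) and of the Msx2 probe (bottom), against distance in kb, coloured by call. The probe at distance 0 is the lowest in each panel (-4.56 and -3.34), Cytl1 lies 81.5 kb from Msx1 on the opposite side of 0, and probes dim in a group are drawn at their fitted value.

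Finally, the genes with the most similar profiles were found among 11763 genes above background on all 6 arrays. Likeness was the root mean square distance (log2) over the 6 arrays, each profile centred on its own mean. For Msx1 the nearest were Ngfr at 0.53, Bmp4 at 0.54, Msx2 at 0.65, the dynein gene Dync1i1 at 0.65 and the Wnt inhibitor gene Wif1 at 0.68. Msx2 was thus 3rd for Msx1 by this distance, but 19th by Pearson r. Ngfr differed by -4.89 ± 0.14 and Wif1 by -3.67 ± 0.17 (log2, SE), values that the likeness to Msx1 implies.

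For Msx2 the nearest were Lmo7, a gene of a junction-associated LIM protein, at 0.13, Dync1i1 at 0.33, the RNA-binding gene Rbfox3 at 0.38, the carrier gene Slc25a33 at 0.44 and the sulfotransferase gene Chst2 at 0.45. Msx1 was 25th for Msx2 by distance and 10th by Pearson r. Lmo7 had levels of -1.84, -0.80 and 0.00 in positive replicates 1, 2 and 3 and 2.23, 2.30 and 2.27 in negative ones. Like Msx2 it was lowest on the dim array and highest, among positive arrays, on replicate 3. The profiles consist of 2 groups of 3 arrays, so a small distance reflects a like difference between the groups and, within the positive group, a like order of the arrays.

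**Figure D5:**
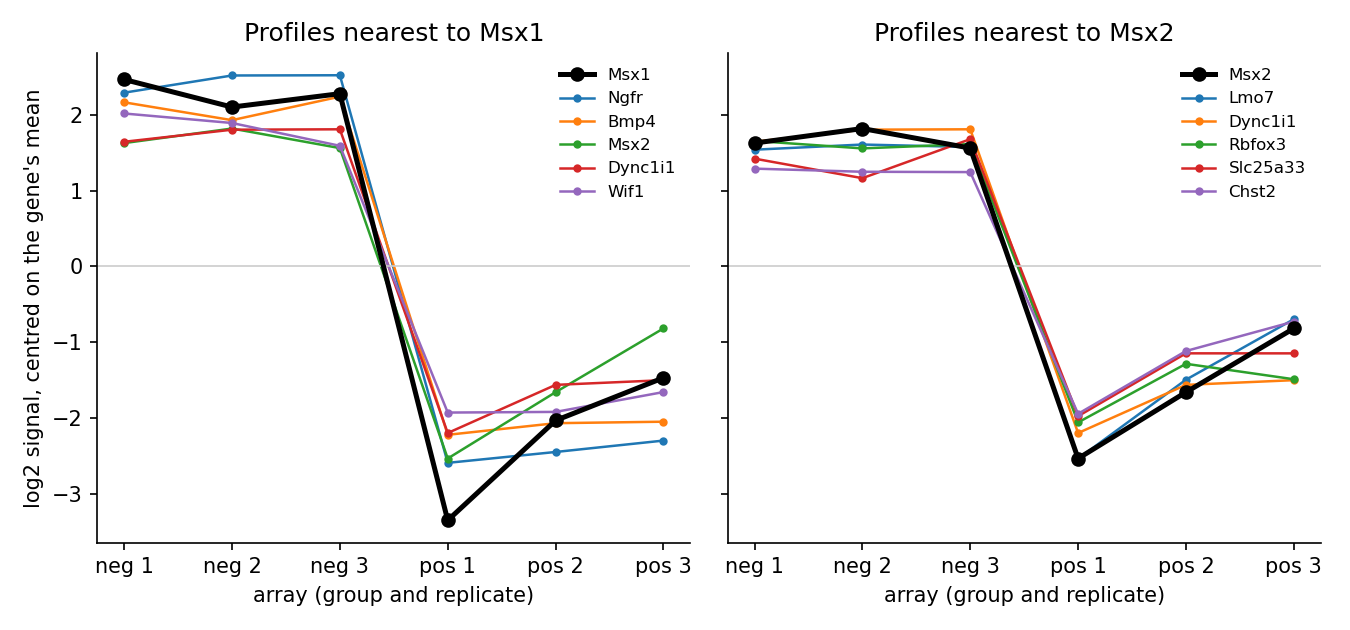
Log2 levels on the 6 arrays, each centred on the gene's own mean, of Msx1 (left) and Msx2 (right) in black with the 5 nearest genes of each in colour. The lines drop from the negative to the positive arrays; Msx1, Msx2 and Lmo7 spread over positive replicates 1 to 3, while Bmp4 and Ngfr stay nearly level there.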

How the data were processed

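RNA of 3 Sox9-EGFP positive and 3 Sox9-EGFP negative samples had been labelled and hybridised to 1-colour Agilent arrays. The input is stated as 100 ng of RNA for extraction and as 75 ng for labelling. Per the file headers, the authors' intensity values came from Feature Extraction 10.7.3.1, which corrected each spot within its array and did not scale between arrays. The deposited series matrix holds the authors' log2 values, with a median of 6.41 on every array and a correlation of 0.997 to 0.998 with the log2 mean signals; the sources used here do not say how their background was treated, and they served as an alternative.

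The processed intensity was divided by the array's 75th percentile over 59305 non-control spots, taken as log2, averaged over the spots of a probe and fitted with limma 3.58.1 in R 4.3.3. Spots flagged as outliers were left out before the averaging. Kept probes had a usable spot on every array and, in 1 group or both, a signal well above background on each of the 3 arrays. Benjamini-Hochberg adjustment ran over the 26473 probes kept. The fit was also run on simulated data with independent normal errors of equal spread in both groups. That simulation had no slide effect and no dim array, so it cannot show how the fit behaves under these. "At least N-fold" sets the mean of the measured group against the lowest signal well above background, or the probe's own if higher, in the other group. An adjusted p beside such a bound is that of the fitted difference, and the bound itself was not tested. The number of arrays, 3 a group, limits the precision.

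Named genes were Msx1, Msx2 and Sox9, up to 4 called genes of each list with the smallest adjusted p, called genes within 500 kb and the 5 nearest profiles by root mean square distance; others, such as Msx3 and single list members that were not called, were named after their values were seen. Members and lists were chosen with earlier results of these data known. One marker gene of the lists is not reported here. Symbols came from RefSeq's list through accessions for 26294 probes and through current or older symbols for 2049 and 355; the other 26983 probes kept the files' names.

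Slides, read from the file headers, each held an array of either group. The deviations of the arrays of a slide from their group means correlated at 0.24 to 0.56. For positive and negative arrays on different slides the correlations were -0.46 to 0.28. Deviations within a group are not independent of each other, so these correlations cannot settle whether the arrays of a slide share an effect.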

Additional observations from a re-analysis of the deposited data

How the results depend on the processing

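Msx1 and Msx2 stayed called lower under all 13 other settings, at -5.21 to -4.12 and -3.99 to -2.92 (log2), with largest limma adjusted p of 0.021 and 0.029. Leaving out each array gave -4.97 to -4.03 and -3.76 to -2.91, with largest limma adjusted p of 0.021 and 0.030. The change in Msx1 less that in Msx2 ranged from -1.39 to -1.11 over the same omissions and was -1.19, -1.16 and -1.20 with normexp, quantile and the authors' values. The sources used here do not say whether samples with the same replicate number shared a litter or a sort. Deviations of same-numbered arrays correlated at -0.27, -0.46 and 0.28. Deviations within a group are not independent of each other, so these correlations cannot settle it. With the replicate block Msx1 had a limma adjusted p of 0.021 and Msx2 of 0.027, both still called, but 5.18% of probes were called, against 21.6%.

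Over the 8 lists, the 20 genes called higher became 10 without scaling, and the 28 called lower became 18 without the background filter; leaving out arrays gave 17 to 21 and 20 to 32. Without scaling, the higher counts fell from 3 to 1 for BMP ligands and antagonists, from 5 to 1 for interdigital genes and from 1 to 0 for BMP-induced and distal genes, and interdigital lower calls from 5 to 3. Without the filter, lower counts fell from 6 to 2 for ligands and antagonists, from 5 to 3 for BMP-induced and interdigital genes, and the only higher call was lost for BMP-induced and distal genes. With the replicate block they fell to 2 for ligands and antagonists and to 3 for interdigital genes, and the distal higher call was lost, as it was without negative replicate 1 or 3. Probes above background on all 6 arrays gave 3 lower BMP-induced genes and, of the reported targets, 3 lower and 0 higher.

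The share of features called was 2.60% without scaling, 2.43% without the filter, 14.3% with quantile normalization, 36.3% with array weights, and 35.0% and 33.0% by gene from the brightest probe or the mean of probes; leaving out arrays gave 7.66% to 24.4%. Lower calls were 63.2% of all calls, 77.6% without scaling, 36.0% without the filter, 47.2% with the replicate block, and 53.0% and 53.1% without negative replicate 1 or 3. Without the filter the median of all probes was 0.34 (log2). Within 200 kb, 1 probe near Msx1 was tested and called higher, and 1 of 2 near Msx2 was lower; within 1000 kb, 1 was higher and 7 lower of 17 near Msx1, and 1 higher and 4 lower of 19 near Msx2. By Pearson r in place of distance, the nearest gene was Chst2 for Msx1 and Lmo7 for Msx2. The cause of these changes was not tested. Probes dim in a group give only bounds.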
